A study of Mus musculus with 2 samples.

Results

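The cells described here were 222 elastin-rich cells of the wildtype heart library, found among 7440 barcodes of that library and 13406 barcodes of both libraries that passed a first filter. That filter asked for at least 3000 UMIs (unique molecular identifiers, each counting 1 captured RNA molecule) and 500 genes, with at most 20% mitochondrial UMIs. Hemoglobin had to give under 20% of UMIs, Ttn under 8 UMIs per 10000, and fewer than 3 of the endothelial genes Pecam1, Cdh5, Egfl7, Kdr, Tek and Emcn could be detected. The cells left by these limits, 3166 in the wildtype library, are called gate cells. Of them, a cell was kept when Eln and Fbln5 together reached 10 UMIs per 10000 and at least 2 of Rgs5, Prdm6, Ntrk3 and Cxcl12 were detected. The 222 cells were 4.24% of 5239 non-erythroid cells (95% interval 3.71 to 4.82) and 7.01% of the gate cells.

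Hearts were dissected from mouse embryos at stage E10.5 and their RNA was read cell by cell. The knockout library came from 4 pooled hearts of genotype BubR1fl/fl; Nkx2.5-cre (het), and the wildtype library from 4 pooled hearts of genotype BubR1+/+; Nkx2.5-cre (het). Both groups thus carry the Cre, which acts in cells of the Nkx2-5 lineage, so cells outside that lineage keep a floxed allele intact. There was 1 library per genotype and cells are not replicates, so no test was run. Every interval, in square brackets or given with a share of cells, is at 95% and covers counting error only.

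Elastin is a cross-linked, stretchable protein that smooth muscle cells of arteries secrete as sheets, and fibulin-5, the product of Fbln5, helps to lay it on fibrillin microfibrils. In the embryo the wall of the great arteries is built around the outflow of the heart by mesenchyme from the neural crest and the second heart field, which turns on contractile genes as it wraps the endothelial tube. Notch signals between neighbouring cells take part in this step, and serum response factor with its partner myocardin drives the contractile genes through a DNA element named the CArG box.

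Many contractile genes were higher in these cells than in the other gate cells, so the start regions of 2 of them are shown. Each runs from 250 bases before the start to 50 after it (RefSeq, GRCm38.p6), and capitals mark CArG boxes with at most 1 G or C inside their A/T core. Acta2 lies on the minus strand at chr19:34255324-34255623 and Myl9 on the plus strand at chr2:156775214-156775513.
Acta2: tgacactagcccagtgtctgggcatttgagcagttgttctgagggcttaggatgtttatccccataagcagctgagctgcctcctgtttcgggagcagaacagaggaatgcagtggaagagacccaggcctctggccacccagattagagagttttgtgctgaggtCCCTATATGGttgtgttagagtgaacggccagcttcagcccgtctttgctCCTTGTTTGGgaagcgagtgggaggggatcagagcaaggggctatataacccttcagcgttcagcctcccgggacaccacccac
Myl9: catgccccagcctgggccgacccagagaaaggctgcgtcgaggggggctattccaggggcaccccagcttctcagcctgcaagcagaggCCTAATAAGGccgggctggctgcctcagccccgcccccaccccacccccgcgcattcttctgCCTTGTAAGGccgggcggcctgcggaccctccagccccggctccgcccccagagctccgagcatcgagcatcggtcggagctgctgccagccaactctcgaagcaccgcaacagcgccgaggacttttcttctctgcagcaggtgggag
The boxes of Acta2 began 84 and 34 bases before the start, each with 1 such letter, and those of Myl9 began 161 and 99 bases before it, 1 of them without any. The element reads alike on both strands. Of the 20 contractile genes searched for, 15 had a window in the RefSeq table, with 21 windows in all. A box with at most 1 such letter stood in 6 of the 21 windows (28.6%), against 9.98% of 32851 windows of all genes, and at least 1 strict box in 4 (19.05%), against 1.63%. Of the 6 windows, 4 belonged to Fhl2, Srf and Mrtfa, with log2 ratios to other gate cells of 0.37, 0.18 and 0.26, and 3 of the 4 windows with a strict box were those of Fhl2 and Srf. Of the 9 contractile genes at least 4-fold higher than in other gate cells, 5 had a window, and 2 of these, Acta2 and Myl9, held a box, 1 of them strict. The windows of Lmod1, Cnn1 and Synpo2 held none.

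The knockout file held 130039314 UMIs over 1632950 barcodes and the wildtype file 122834180 over 1451246. Non-erythroid cells had a median of 15950 UMIs in the knockout library and 8591 in the wildtype library. The libraries differed in signs of embryonic stage: Hbb-bh1, an early embryonic globin, gave 8.15% of globin UMIs in knockout erythroid cells and 0.360% in wildtype ones, while the adult globin Hbb-bs gave 0.264% in knockout and 9.54% in wildtype erythroid cells. Lin28a, an RNA-binding protein of early embryos, stood at 16.6 CPM (UMIs scaled to a total of 1e6 in the cells summed) in knockout gate cells and 3.09 CPM in wildtype gate cells. Hepatic marker genes summed to 598 CPM in knockout gate cells and 1.71 CPM in the wildtype gate cells outside the elastin-rich class. Bub1b, which encodes BubR1, was at 32.7 CPM in knockout cardiomyocytes and 58.1 CPM in wildtype cardiomyocytes, and at 46.9 CPM in knockout gate cells and 44.7 CPM in wildtype gate cells. The 222 elastin-rich cells had Bub1b at 36.7 CPM [29.0, 45.7]. Which part of Bub1b the floxed allele loses is not stated here, so these levels do not check the genotype. Only 8 barcodes passed the first filter in both libraries, and 1 of them was an elastin-rich cell.

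The cells were chosen by Eln, Fbln5, Rgs5, Prdm6, Ntrk3 and Cxcl12 of the same cells, so the values of these genes are a description only. Eln and Fbln5 together gave 10.2, 48.4 and 216 UMIs per 10000 (lowest, median and highest) in the 222 cells, and a median of 0.673 in all wildtype gate cells. Summed over cells, Eln (mm10 chromosome 5, 134702593 to 134747323, minus strand) was at 4216 CPM in elastin-rich cells and 112 CPM in other gate cells. Fbln5 (chromosome 12, 101746565 to 101819055, minus strand) was at 1435 CPM in elastin-rich cells and 43.2 CPM in other gate cells. Rgs5, a brake on G protein signals that marks mural cells, was at 605 CPM in elastin-rich cells and 7.39 CPM in other gate cells. Prdm6, a chromatin regulator of smooth muscle, was at 721 CPM in elastin-rich cells and 24.2 CPM in other gate cells. All of Rgs5, Prdm6, Ntrk3 and Cxcl12 were detected in 108 of the cells, 3 of them in 78 and 2 in 36.

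The cells next to the elastin threshold are given as a description. The 16 cells just inside it, at 10 to 12 UMIs of Eln and Fbln5 per 10000, had Acta2 at 215 CPM and Sfrp2 at 1176 CPM. The 9 cells just outside, at 8 to 10 per 10000 with 2 of the 4 genes, had Acta2 at 161 CPM and Sfrp2 at 825 CPM. A further 56 gate cells met the elastin minimum without 2 of the 4 genes, and they had Acta2 at 782 CPM and Sfrp2 at 615 CPM.

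**Figure D1:**
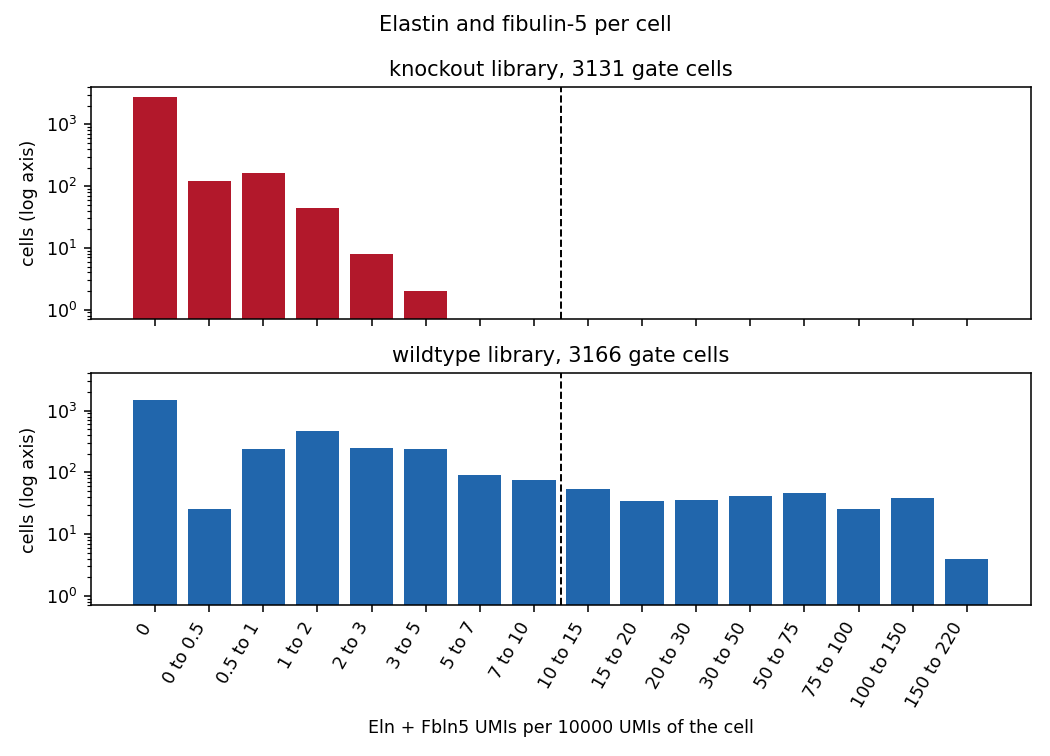
Number of gate cells (log axis) by UMIs of Eln and Fbln5 per 10000 UMIs of the cell, knockout library above and wildtype library below; the dashed line is the minimum of 10. Knockout cells end at 4.33, and 278 wildtype cells lie at or above the line.

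The label of an arterial wall cell was checked against smooth muscle and mural genes that the rule did not use. Of Acta2, Tagln, Myh11, Cnn1, Myocd, Pdgfrb and Notch3, 6 were at least 2-fold higher in elastin-rich cells than in other gate cells. Pdgfrb had 122 CPM in elastin-rich cells and 68.0 CPM in other gate cells. Over all 15895 genes compared, 6.86% were at least 2-fold higher and 16.3% at least 2-fold lower. Acta2, Cnn1 and Myocd were higher still in cardiomyocytes, as given below. Macrophage markers summed to 17.6 CPM in elastin-rich cells and 1057 CPM in other gate cells, with all 9 lower. Epicardial markers summed to 199 CPM in elastin-rich cells and 1253 CPM in other gate cells, with all 10 at least 2-fold lower. Endothelial markers outside the 6 genes of the rule summed to 156 CPM in elastin-rich cells and 208 CPM in other gate cells. Of the 11 with at least 20 UMIs over both classes, 3 were at least 2-fold lower and 2 at least 2-fold higher. The 2 higher were Flt1 and Erg, with log2 ratios of 1.37 and 2.26, and the median of the list was -0.18. The part of such cells in the levels of other genes was not tested. Where in the heart these cells lay was not measured, so they are called elastin-rich cells here.

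The contractile genes of smooth muscle were far more abundant in the elastin-rich cells than in the other cells of the gate. Acta2, smooth muscle actin, gave 0, 9.18 and 82.9 UMIs per 10000 per cell (lowest, median and highest) in the 222 elastin-rich cells and 0, 0 and 95.3 in the 2944 other gate cells. The ranges overlapped, but the upper quartile of other gate cells, 0.947, lay below the lower quartile of elastin-rich cells, 1.69. Summed, Acta2 was at 1436 CPM [1386, 1487] in elastin-rich cells and 188 CPM [183, 193] in other gate cells, a log2 ratio of 2.93 [2.87, 3.00]. Tagln, an actin-binding protein of smooth muscle, gave 0, 6.15 and 82.9 UMIs per 10000 in elastin-rich cells and 0, 0 and 62.2 in other gate cells, with a log2 ratio of 2.77 [2.70, 2.84].

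Of the 20 contractile genes, all had at least 20 UMIs over both classes, 11 were at least 2-fold higher in elastin-rich cells than in other gate cells and none was at least 2-fold lower. Over all 15895 genes so compared, 6.86% were at least 2-fold higher and 16.3% at least 2-fold lower. The list had a median log2 ratio of 1.61 and all genes one of -0.10. Lmod1, which nucleates actin filaments in smooth muscle, was at 113 CPM [99.4, 128] in elastin-rich cells and 3.16 CPM [2.52, 3.90] in other gate cells, the largest ratio of the list at 5.16 [4.80, 5.54]. Cnn1, calponin, was at 116 CPM in elastin-rich cells and 11.5 CPM in other gate cells. Synpo2, an actin-bundling protein, was at 320 CPM in elastin-rich cells and 35.8 CPM in other gate cells. Myocd, the coactivator myocardin, was at 168 CPM in elastin-rich cells and 22.2 CPM in other gate cells (log2 ratio 2.92 [2.72, 3.11]). Its DNA-binding partner Srf was at 9.28 CPM in elastin-rich cells and 8.17 CPM in other gate cells, a log2 ratio of 0.18 [-0.56, 0.85] from 20 UMIs in the elastin-rich cells. Myh11, the myosin heavy chain of mature smooth muscle, was at 93.7 CPM [81.2, 108] in elastin-rich cells and 16.7 CPM [15.2, 18.3] in other gate cells. Mylk, the kinase that starts smooth muscle contraction, was the lowest of the list at -0.98 [-1.29, -0.68].

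Not every elastin-rich cell carried these transcripts. An Acta2 UMI was found in 79.7% of elastin-rich cells, 28.8% of other gate cells and 16.4% of erythroid cells, which should lack it, at median depths of 8790.5, 8315.5 and 11578 UMIs. After each cell was thinned to 3000 UMIs these shares were 70.3%, 17.97% and 7.59%. Lmod1 was found in 44.6% of elastin-rich cells, 1.46% of other gate cells and 0.727% of erythroid cells (24.3%, 0.713% and 0.318% thinned). Myh11 was found in 20.7% of elastin-rich cells, 1.22% of other gate cells and 0.772% of erythroid cells (12.2%, 0.815% and 0.363% thinned). Of the 46 elastin-rich cells with Myh11, 43 also had Lmod1.

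Embryonic heart muscle also makes several of these genes. The contractile list summed to 7284 CPM in elastin-rich cells, 5497 CPM in cardiomyocytes, 2344 CPM in cushion-type cells, 2051 CPM in epicardial-type cells and 1271 CPM in endothelial cells. Acta2 was at 1436 CPM in elastin-rich cells and 1718 CPM in cardiomyocytes, Cnn1 at 116 CPM in elastin-rich cells and 219 CPM in cardiomyocytes, and Myocd at 168 CPM in elastin-rich cells and 439 CPM in cardiomyocytes. Other genes of the list set them apart: Lmod1 was at 3.71 CPM and Myh11 at 1.90 CPM in cardiomyocytes. The 14 cardiomyocyte markers summed to 953 CPM in elastin-rich cells, 1216 CPM in other gate cells and 42182 CPM in cardiomyocytes, and none was at 0 in the elastin-rich cells. Against other gate cells, Myh6, Actn2 and Ryr2 were at least 2-fold higher and Myl7 at least 2-fold lower.

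**Figure D2:**
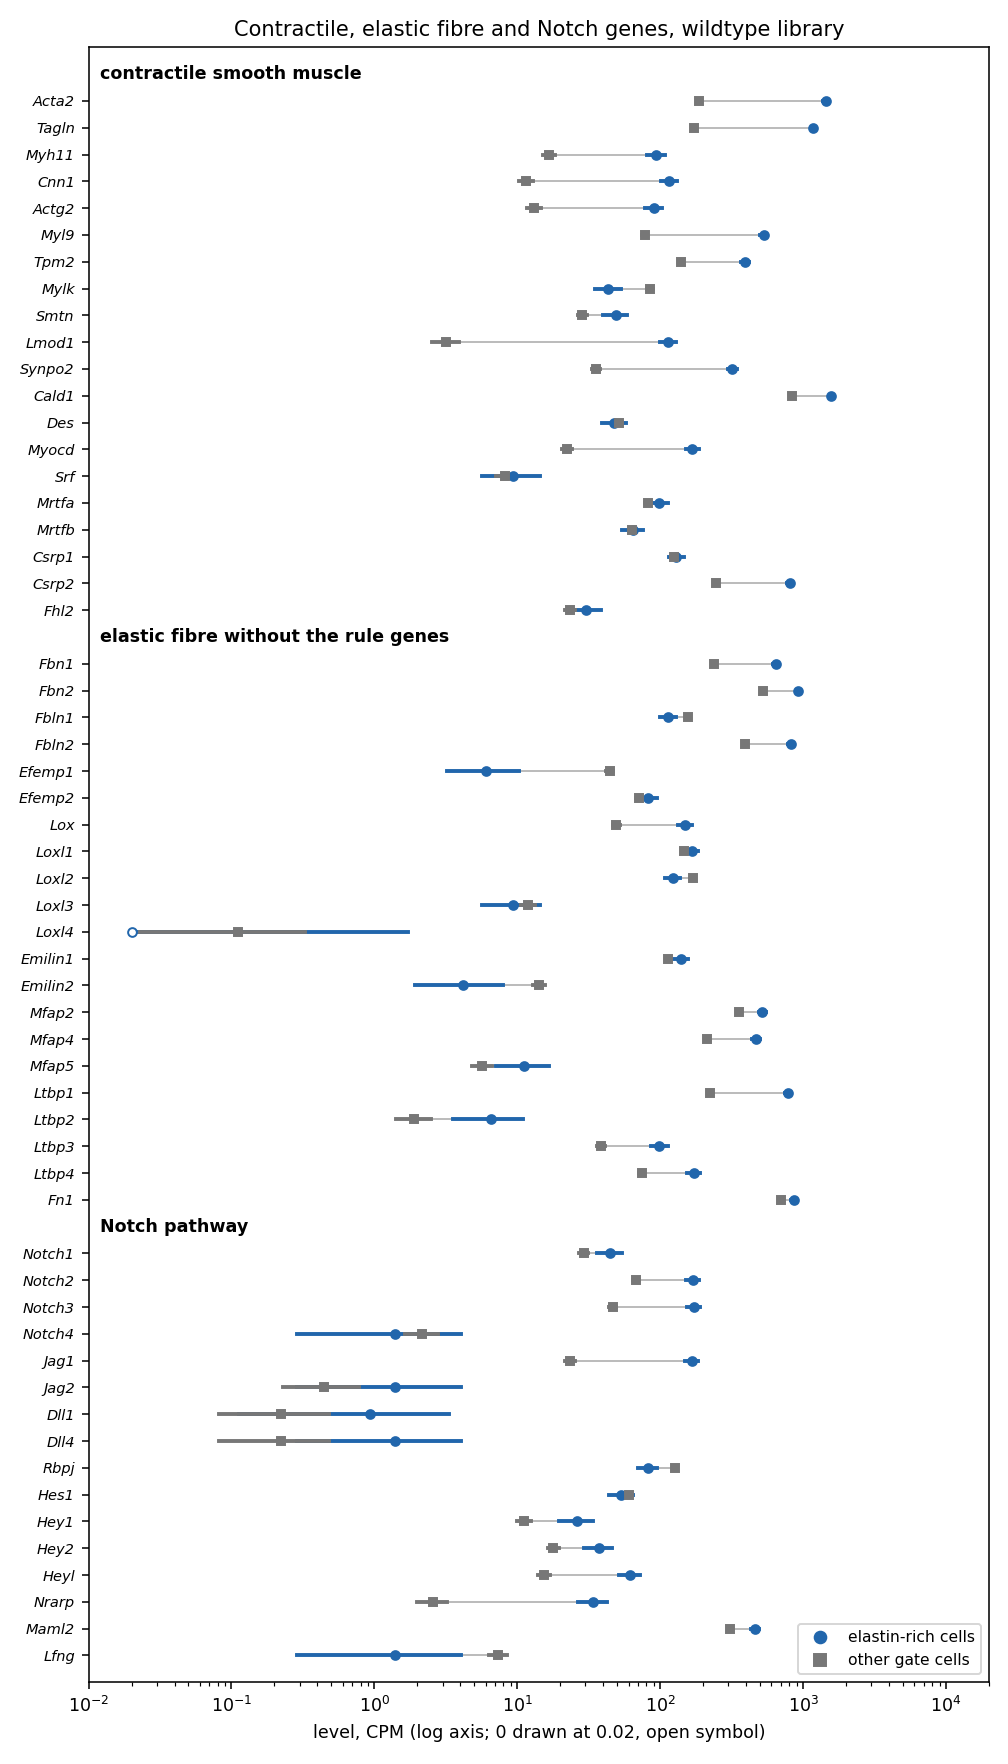
Level in CPM (log axis) of each contractile, elastic fibre and Notch gene in elastin-rich cells (circles) and other gate cells (squares), with Poisson 95% intervals as thick bars. Lmod1, at 113 against 3.16 CPM, has the widest gap among the contractile genes.

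Pericyte genes did not differ as 1 block. Of 19 mural and pericyte genes, 17 passed the minimum. Of these, 5 were at least 2-fold higher in elastin-rich cells than in other gate cells and 3 at least 2-fold lower. Over all genes 6.86% were higher and 16.3% lower by as much, so the lower count is near that share. Rgs4, another regulator of G protein signals, was at 47.8 CPM in elastin-rich cells and 1.08 CPM in other gate cells (5.47 [4.87, 6.12]). Cspg4, the proteoglycan NG2, was at 58.0 CPM in elastin-rich cells and 9.47 CPM in other gate cells. Ednra, the endothelin receptor of arterial smooth muscle, was at 140 CPM in elastin-rich cells and 27.2 CPM in other gate cells. The 3 lower genes were Gucy1a1, Ndufa4l2 and Tbx2, with log2 ratios of -1.57, -1.67 and -1.07. The whole list summed to 1290 CPM in elastin-rich cells and 1296 CPM in other gate cells. Kcnj8 and Abcc9, subunits of the pericyte potassium channel, stood at 4.18 and 20.9 CPM in elastin-rich cells and at 6.57 and 11.5 CPM in other gate cells. Higd1b had no UMI in the 222 cells, and Vtn none in either class.

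The elastic fibre genes that the rule left out were in part higher too. Of 21 such genes, 20 passed the minimum. Of these, 8 were at least 2-fold higher in elastin-rich cells than in other gate cells and 2 at least 2-fold lower. The median log2 ratio was 0.69, and 6.86% of all genes were higher and 16.3% lower by as much. Fbn1, fibrillin-1 of the microfibril, was at 646 CPM in elastin-rich cells and 239 CPM in other gate cells (1.43 [1.35, 1.52]). Fbn2, the embryonic fibrillin, was at 925 CPM in elastin-rich cells and 522 CPM in other gate cells. Lox, the oxidase that cross-links elastin and collagen, was at 149 CPM in elastin-rich cells and 49.2 CPM in other gate cells, whereas its relative Loxl1 was at 167 CPM in elastin-rich cells and 146 CPM in other gate cells.

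All 4 latent Tgf-beta binding proteins were at least 2-fold higher, with Ltbp1 at 778 CPM in elastin-rich cells and 221 CPM in other gate cells. Mfap4, which binds elastin and fibrillin, had a log2 ratio of 1.15 [1.05, 1.24], and Mfap2 one of 0.55 [0.46, 0.64]. Efemp2, fibulin-4, which is needed for elastic fibres, had a log2 ratio of 0.22 [-0.01, 0.44]. Efemp1, fibulin-3, was at 6.03 CPM in elastin-rich cells and 44.2 CPM in other gate cells (-2.87 [-3.79, -2.09]).

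The collagens did not share this pattern. Of 22 collagen and proteoglycan genes, 21 passed the minimum. Of these, 2 were at least 2-fold higher and 6 at least 2-fold lower in elastin-rich cells than in other gate cells. The median log2 ratio was -0.08, and 6.86% of all genes were higher and 16.3% lower by as much. The fibrillar collagen Col1a1 was at 1220 CPM in elastin-rich cells and 1237 CPM in other gate cells. Col12a1, a collagen of load-bearing tissue, was at 198 CPM in elastin-rich cells and 30.5 CPM in other gate cells, and Col6a3 at 152 CPM in elastin-rich cells and 44.1 CPM in other gate cells. Postn and Vcan, matrix genes of the valve cushions, had log2 ratios of -1.73 and -1.03, and the proteoglycan Dcn one of -1.48. Against all 5017 other non-erythroid cells, which include matrix-poor heart muscle, 6 of the 21 were at least 2-fold higher and 1 at least 2-fold lower; in that comparison 8.86% of 17149 genes were at least 2-fold higher and 18.8% at least 2-fold lower.

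Among signalling genes, the Notch group had more members at a higher level than in other gate cells. Of 16 Notch pathway genes, 13 passed the minimum. Of these, 7 were at least 2-fold higher and 1 at least 2-fold lower, against 6.86% and 16.3% of all genes. The median log2 ratio was 1.05. The ligand Jag1 gave a median of 1.05 and a highest value of 16.7 UMIs per 10000 in elastin-rich cells, against a median of 0 and a highest value of 5.28 in other gate cells. Summed, it was at 167 CPM in elastin-rich cells and 23.4 CPM in other gate cells (2.83 [2.64, 3.02]). Its receptors Notch3 and Notch2 were at 172 and 168 CPM in elastin-rich cells and at 46.5 and 67.8 CPM in other gate cells.

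The Notch targets Heyl and Nrarp had log2 ratios of 1.98 [1.69, 2.27] and 3.72 [3.23, 4.22], and Hey1 and Hey2 of 1.22 and 1.05. Hes1, a target shared with other pathways, had one of -0.19 [-0.47, 0.09], and Rbpj, the DNA-binding partner of Notch, one of -0.64. Jag1 and Notch3 were found together in 100 of the 222 cells and both missing in 41. All other non-erythroid cells include endothelial cells with Notch genes of their own. Set against them, 6 of 16 were at least 2-fold higher and 4 at least 2-fold lower, beside 8.86% and 18.8% of all genes.

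The Tgf-beta group was near the 6.86% at least 2-fold higher and 16.3% at least 2-fold lower over all genes. Of 18 genes, 2 were at least 2-fold higher in elastin-rich cells than in other gate cells and 3 at least 2-fold lower. Among those higher was the secreted target Ccn2, at 77.0 CPM in elastin-rich cells and 10.4 CPM in other gate cells. The ligand Tgfb2 was at 481 CPM in elastin-rich cells and 256 CPM in other gate cells (0.91 [0.81, 1.00]), and Tgfb1 at 12.5 CPM in elastin-rich cells and 26.7 CPM in other gate cells.

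Growth factor and chemokine partners gave 6 of 14 at least 2-fold higher and 3 at least 2-fold lower, against 6.86% and 16.3% of all genes. The neurotrophin Bdnf was at 69.6 CPM in elastin-rich cells and 8.54 CPM in other gate cells, and its receptor Ntrk2 at 128 CPM in elastin-rich cells and 10.8 CPM in other gate cells. Ntf3, the ligand of the receptor encoded by the rule gene Ntrk3, was at 26.5 CPM in elastin-rich cells and 4.01 CPM in other gate cells. Of the receptors for Cxcl12, Cxcr4 had no UMI in the elastin-rich cells and 2.38 CPM in other gate cells, whereas Ackr3, which takes the ligand up, was at 103 CPM in elastin-rich cells and 40.5 CPM in other gate cells. Pdgfa and Pdgfc had log2 ratios of 1.65 and 1.97.

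Hox genes, which record position along the body axis, were the list with the highest median. Of 27 genes, 14 passed the minimum against other gate cells, with a median log2 ratio of 2.03. Of these, 10 were at least 2-fold higher in elastin-rich cells and 1 at least 2-fold lower, against 6.86% and 16.3% of all genes. The higher genes belonged to the anterior paralog groups, Hoxb2 to Hoxb5, Hoxd3 and Hoxd4 among them. Hoxb3 was at 50.1 CPM in elastin-rich cells and 11.6 CPM in other gate cells (2.11 [1.78, 2.43]), Hoxb4 at 47.3 CPM in elastin-rich cells and 9.51 CPM in other gate cells, and Hoxa3 at 42.2 CPM in elastin-rich cells and 9.84 CPM in other gate cells. Hoxa5 had a log2 ratio of 0.36 [-0.06, 0.75].

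The other Hox genes were at or near 0, those of higher number among them: Hoxb6 and Hoxc6 had 1 UMI each in the 222 cells, and Hoxb1, Hoxc5, Hoxd1, Hoxa7, Hoxa9, Hoxb7, Hoxb8, Hoxb9, Hoxc8, Hoxc9, Hoxc10, Hoxd8 and Hoxd9 had none. Cushion-type cells were near 0 for these genes too, with Hoxc6 the highest of them at 12 UMIs (1.59 CPM). Being near 0 was thus not particular to the elastin-rich cells. Hoxb3 was found in 35.1% of elastin-rich cells, 7.78% of other gate cells and 1.73% of erythroid cells (14.0%, 3.57% and 0.636% thinned).

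Genes linked to the second heart field and to the neural crest were each at least 2-fold higher more often than all genes. The neural crest list, however, had as many genes at least 2-fold lower as higher. Of 15 second heart field genes, 14 passed the minimum, 6 were at least 2-fold higher in elastin-rich cells than in other gate cells and 1 at least 2-fold lower, with a median log2 ratio of 0.69, against 6.86% and 16.3% of all genes. Isl1, a transcription factor of these progenitors, was at 27.8 CPM in elastin-rich cells and 7.24 CPM in other gate cells and was found in 46 of the 222 cells. The forkhead genes Foxc1 and Foxc2 had log2 ratios of 2.12 and 2.23, and Hand1 one of 3.31 [2.45, 4.15]. Nkx2-5, whose promoter drives the Cre, was at 2.32 CPM in elastin-rich cells, 2.26 CPM in other gate cells and 104 CPM in cardiomyocytes.

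Of 17 neural crest genes, 16 passed the minimum, with a median log2 ratio of 0.44. Of these, 4 were at least 2-fold higher and 4 at least 2-fold lower, against 6.86% and 16.3% of all genes. Whether these lists differ was not tested. Tfap2b, a transcription factor of neural crest and of ductus smooth muscle, was at 31.5 CPM in elastin-rich cells and 1.78 CPM in other gate cells, with 68 UMIs in 18 cells. Plxna2, a semaphorin receptor of cardiac neural crest, was at 181 CPM in elastin-rich cells and 22.2 CPM in other gate cells. Plxna4 and Ednrb were lower, with log2 ratios of -2.42 and -3.11. Sox10 and Foxd3, which mark migrating crest and count among the 4 lower genes, had no UMI in the elastin-rich cells. Other gate cells had 83 UMIs of Sox10 and 20 of Foxd3, and the interval of the Foxd3 log2 ratio reached 1.34. Osr1, a transcription factor of mesenchyme around the foregut, was at 190 CPM in elastin-rich cells and 34.5 CPM in other gate cells.

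**Figure D3:**
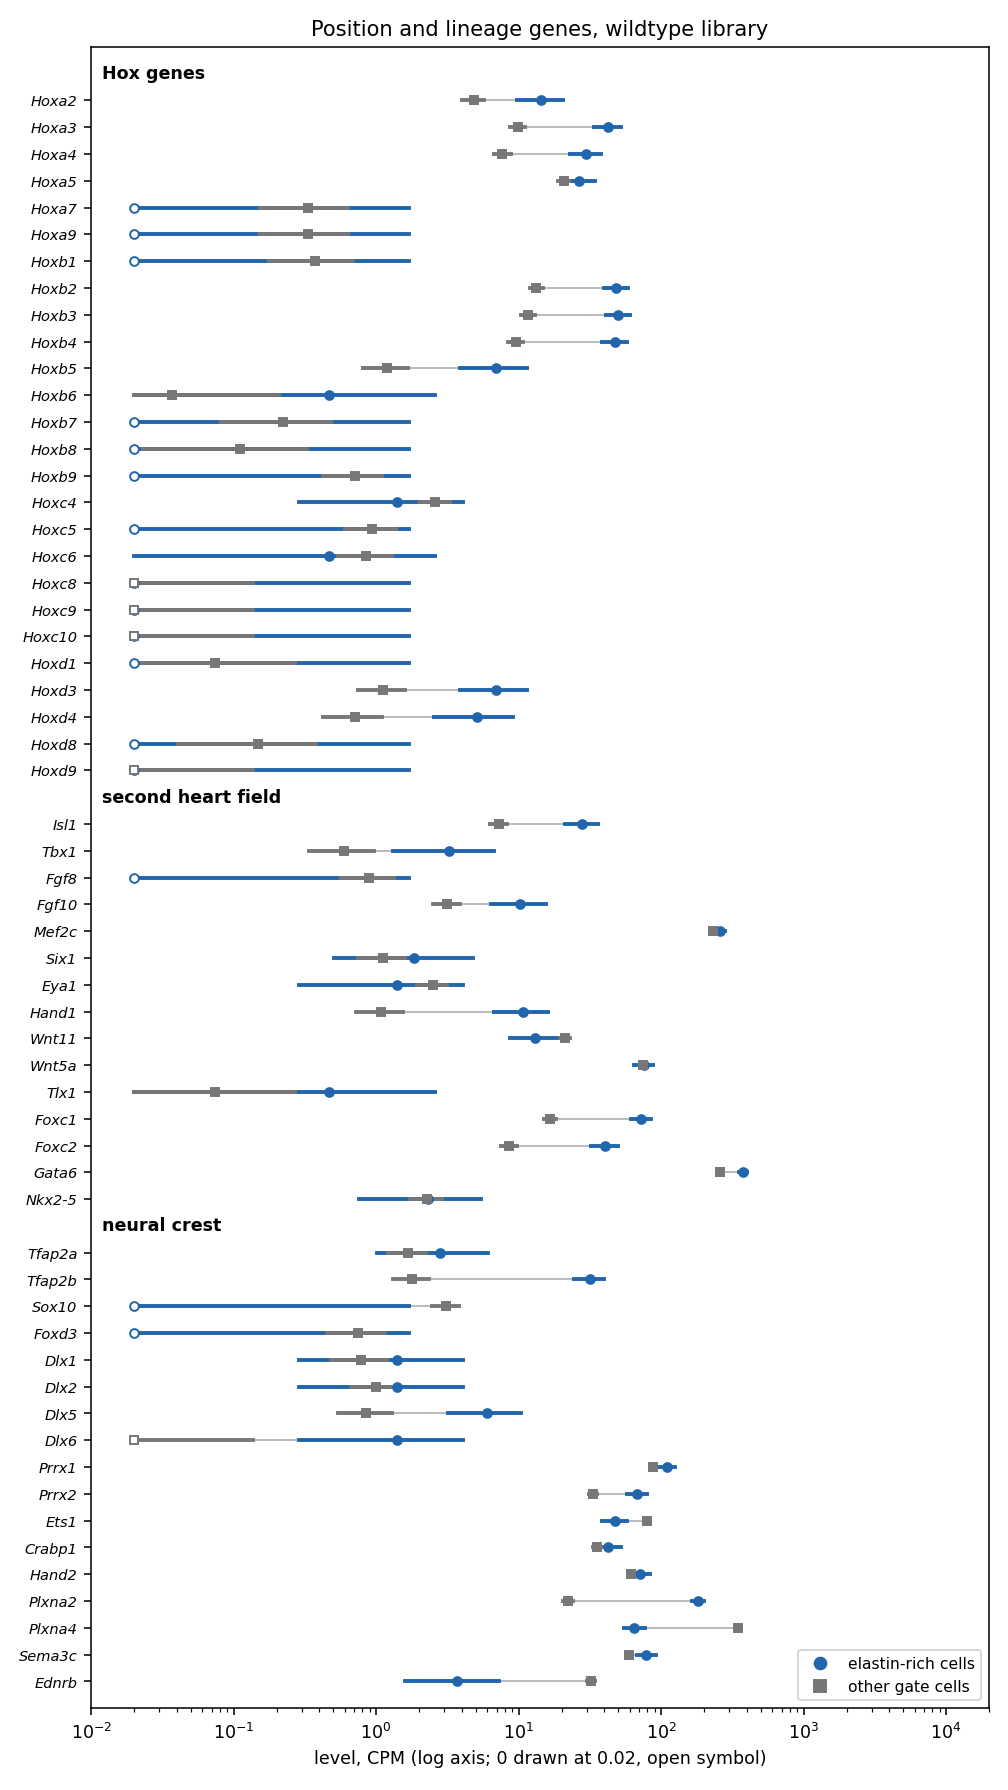
Level in CPM (log axis) of the Hox genes reported here and of second heart field and neural crest genes in elastin-rich cells (circles) and other gate cells (squares), with Poisson 95% intervals as thick bars; open symbols are 0. Hoxb3, at 50.1 CPM against 11.6 CPM, and its anterior neighbours lie to the right for elastin-rich cells, and the posterior Hox genes lie at or near 0.

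Genes of the valve cushions were low. All 13 cushion mesenchyme genes passed the minimum, with a median log2 ratio of -2.45. At least 2-fold lower in elastin-rich cells than in other gate cells were 12 of them, against 16.3% of all genes. The other, Snai2, had a log2 ratio of -0.37. Sox9, the regulator of cushion and cartilage cells, was at 14.8 CPM in elastin-rich cells and 178 CPM in other gate cells. Tbx20, a transcription factor of heart muscle and cushions, was at 87.7 CPM in elastin-rich cells and 635 CPM in other gate cells, and Gata4 at 52.4 CPM in elastin-rich cells and 274 CPM in other gate cells. Gata6, a relative of Gata4 found in arterial smooth muscle, was at 375 CPM in elastin-rich cells and 257 CPM in other gate cells. Acan, a cartilage proteoglycan, was at 28.8 CPM in elastin-rich cells and 0.111 CPM in other gate cells, from 62 UMIs in 25 of the 222 cells and 3 UMIs in all other gate cells (8.01 [6.40, 10.33]). Of the 62 Acan UMIs, 31 came from 5 cells. No cell had both Acan and Tfap2b, and 179 had neither.

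The remaining lists are read against the 6.86% higher and 16.3% lower over all genes of this comparison. Of 13 fibroblast and adventitial genes that passed the minimum, 7 were at least 2-fold lower in elastin-rich cells than in other gate cells and 1 was higher. That 1 was Cd34, a surface sialomucin of stromal cells, at 180.5 CPM [163, 199] in elastin-rich cells and 23.1 CPM in other gate cells, while Tcf21, a regulator of cardiac fibroblasts, had a log2 ratio of -3.61. Of 10 foregut and lung mesenchyme genes 4 were higher, among them Ptch1, the Hedgehog receptor, at 64.0 CPM in elastin-rich cells and 27.1 CPM in other gate cells, and 5 were lower, Tbx5 with a log2 ratio of -2.98 among them. Of 16 cardiac transcription factors 7 were lower and 2, Hand1 and Isl1, higher. Of 5 somite and cartilage genes Acan was higher and 2 were lower, with Pax3 at 0 in elastin-rich cells. Of 11 stage genes none was higher and 2 were lower, and of 3 skeletal muscle genes 1 was lower.

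Ranked over all genes, those with the highest ratio to the other non-erythroid cells were mostly outside the lists. Col24a1, a minor fibrillar collagen, was at 268 CPM in elastin-rich cells and 8.12 CPM in the others (5.05 [4.86, 5.23]). Sfrp2, a secreted modulator of Wnt signals, was at 1064 CPM in elastin-rich cells and 61.1 CPM in the others, and was found in 96.4% of elastin-rich cells, 26.0% of other gate cells and 6.32% of erythroid cells (89.2%, 16.5% and 2.91% thinned). Gpc6, a heparan sulfate proteoglycan of the cell surface, was at 5148 CPM in elastin-rich cells and 661 CPM in the others.

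Of the 25 highest, several are best known from neurons: Cntn4 (612 CPM in elastin-rich cells and 37.1 CPM in the others), Kcnip4 (251 CPM in elastin-rich cells and 14.3 CPM in the others), Gabra2 (104 CPM in elastin-rich cells and 2.04 CPM in the others), Brinp1 (376 CPM in elastin-rich cells and 34.4 CPM in the others), Ntrk2, Ctnnd2, Ralyl and Lrp1b. Neural and Schwann markers summed to 41.3 CPM in elastin-rich cells and 70.3 CPM in other gate cells. In elastin-rich cells 6 of the 12 were at 0, Sox10 and Elavl3 among them. The median log2 ratio of the list to other gate cells was -0.62. The interval of the ratio lay below 0 for 6 of the 12 and held 0 for 5. Of the 12, 9 were at least 2-fold lower, counting those at 0, and 1 at least 2-fold higher, against 16.3% and 6.86% of all genes. The higher one was Stmn2, a neuronal tubulin-binding protein, at 15.8 CPM in elastin-rich cells and 7.31 CPM in other gate cells (1.11 [0.54, 1.64]), and Elavl4, a neuronal RNA-binding protein, was at 16.2 CPM in elastin-rich cells and 12.3 CPM in other gate cells. The others of the 25 included the kinase genes Ror1 (960 CPM in elastin-rich cells and 129 CPM in the others) and Alk (116 CPM in elastin-rich cells and 4.75 CPM in the others), Kcnab1, Clca3a2, Nupr1, Slc26a7, Adamts2, Gxylt2, Tmem158, Rerg and Hs6st3. Against other gate cells Pcdh7, a protocadherin, also stood among the 10 highest, at 1591 CPM in elastin-rich cells and 136 CPM in other gate cells, but cardiomyocytes had 831 CPM. The 15 lowest against all other non-erythroid cells included genes of heart muscle (Myh7, Myl2, Myl3, Actc1), endothelium (Ramp2, Ednrb) and macrophages (C1qb).

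**Figure D4:**
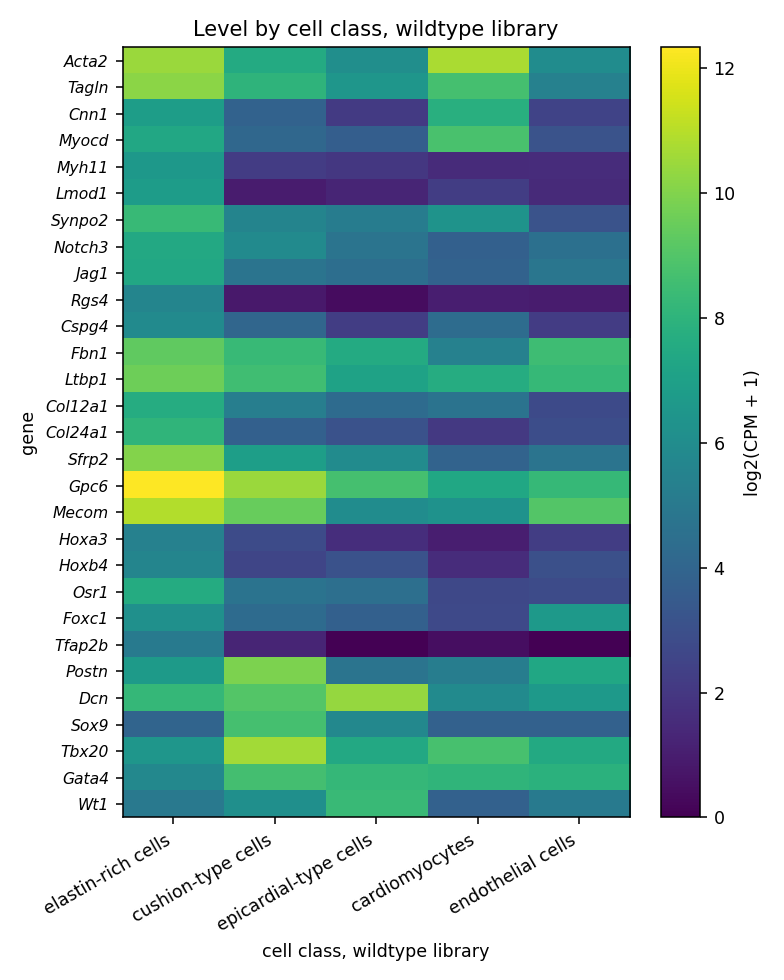
Colour gives log2(CPM + 1) of 29 genes in 5 classes of the wildtype library; Sox9 and Postn helped to choose the cushion-type cells and Wt1 the epicardial-type cells. Lmod1, Rgs4 and Tfap2b are brighter in the elastin-rich column than in the other columns, whereas Acta2 is about as bright in cardiomyocytes.

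Set beside 723 cushion-type cells, which had at least 3 of 6 cushion markers, the contractile list gave 12 of 20 genes at least 2-fold higher and none at least 2-fold lower; 7.1% of all 13132 genes were at least 2-fold higher and 8.27% at least 2-fold lower. The Hox list gave 9 of 11, with a median log2 ratio of 2.79. Elastic fibre genes gave 5 of 20 higher and 2 lower, with a median of 0.48. Beside 963 epicardial-type cells the contractile list gave 11 of 20 at least 2-fold higher, and the Notch list 8 of 12, against 9.2% of 13403 genes.

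Cell cycle genes were near their level in other gate cells, but by median slightly below it. The interval of the ratio lay below 0 for 13 of the 24 G2/M genes and 6 of the 20 S phase genes, and above 0 for none. All 24 G2/M genes lay within 2-fold of other gate cells, with a median log2 ratio of -0.30, and all 20 S phase genes too, with a median of -0.21. Mki67, a protein of dividing cells, was found in 27.5% of elastin-rich cells and 30.8% of other gate cells, and in 17.1% of erythroid cells (18.02%, 20.9% and 8.95% thinned). Against cushion-type cells the G2/M median was -0.66.

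Along the elastin level the other genes differed by degrees. Wildtype gate cells were split at 0, 5, 10, 20 and 50 UMIs of Eln and Fbln5 per 10000, and the bins of 0, above 0 to 5, 5 to 10, 10 to 20, 20 to 50 and 50 or more held 1503, 1220, 165, 87, 78 and 113 cells. Acta2 stood at 180, 165, 258, 519, 1109 and 2063 CPM in that order. Lmod1 was at 2.95, 2.07, 8.88, 17.1, 87.8 and 162 CPM, so most of its difference lay above 20. Sfrp2 was at 44.3, 102, 340, 791, 901 and 1181 CPM, and most of its difference lay below 20. Tfap2b peaked at 56.7 CPM (42 UMIs) between 20 and 50, with 10.2 CPM (11 UMIs) at 50 or more. Few cells carried it: of its 68 UMIs in the 222 cells, 35 came from 5 cells.

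The summed cushion list stood highest at 5 to 10, at 2149 CPM, and lowest at 50 or more, at 227 CPM. Col1a1 and Fbn2 were highest in the middle: Fbn2 peaked at 1043 CPM between 20 and 50, and Col1a1 was at 936, 1491, 1674, 1531, 1319 and 920 CPM. The Hox list summed to 70.7, 98.1, 158, 239, 330 and 206 CPM. Median depth ran between 7090 and 9408 UMIs over these bins, with no order. Relations along these bins were not tested.

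**Figure D5:**
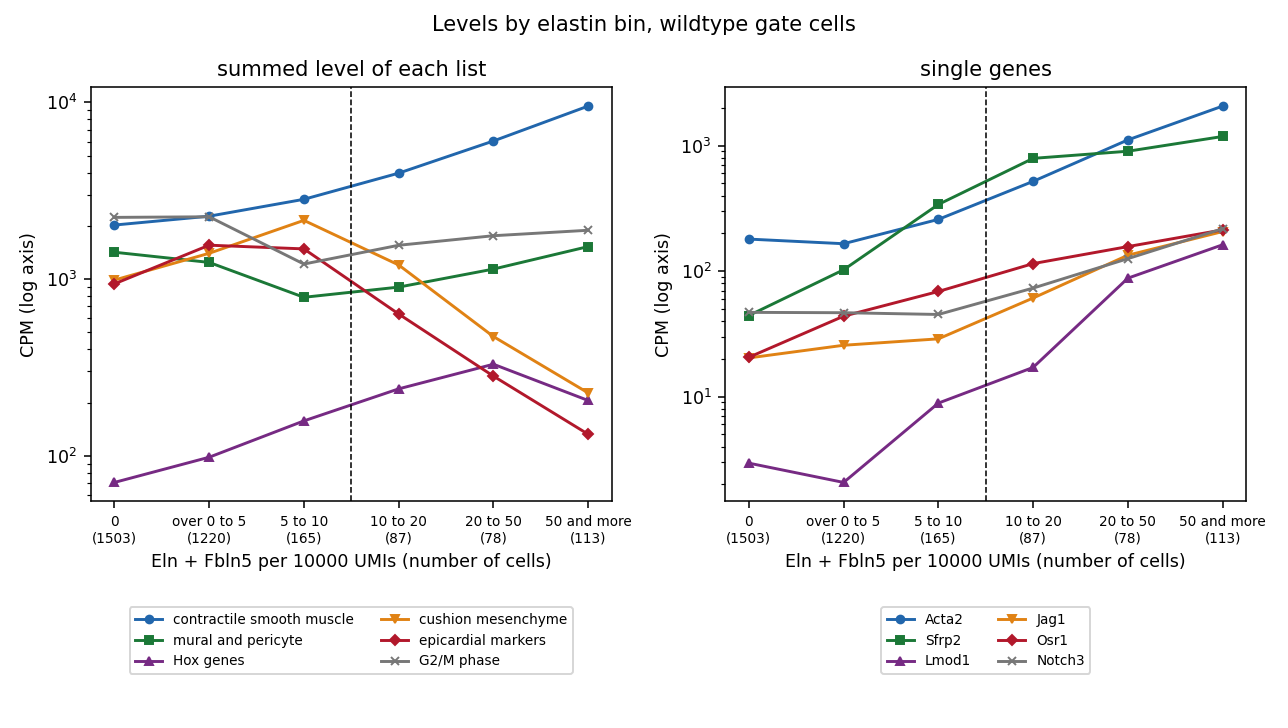
Level in CPM (log axis) of summed gene lists (left) and single genes (right) in wildtype gate cells by UMIs of Eln and Fbln5 per 10000; the dashed line is the minimum of the elastin-rich class. The contractile list stands at 2021 CPM in the lowest bin and 9526 CPM in the highest, while the cushion and epicardial lists are lowest at the right.

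Within the 222 cells, a split at the median of Acta2 and Tagln together (16.1 UMIs per 10000) gave 111 upper and 111 lower cells, chosen on these values and given as a description. The upper cells had a median of 71.6 UMIs of Eln and Fbln5 per 10000 and 9730 UMIs per cell, and the lower cells a median of 25.8 and 8287 UMIs per cell. Myh11 was at 167 CPM in the upper cells and 9.02 CPM in the lower cells. Jag1 was at 223 CPM in the upper cells and 101 CPM in the lower cells, and Nrarp had 73 UMIs in the upper cells and none in the lower cells. The Notch list summed to 1509 CPM in the upper cells and 1078 CPM in the lower cells, and the G2/M list to 2035 CPM in the upper cells and 1484 CPM in the lower cells.

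The lower cells were richer in other genes. Robo1, a guidance receptor, was at 476 CPM in the upper cells and 2800 CPM in the lower cells. Pdgfra, a receptor of fibroblasts, was at 47.5 CPM in the upper cells and 144 CPM in the lower cells, and Col1a1 at 882 CPM in the upper cells and 1613 CPM in the lower cells. Dlk1, a Notch-like protein of immature mesenchyme, was at 119 CPM in the upper cells and 703 CPM in the lower cells, and Kcnb2 at 9.50 CPM in the upper cells and 183 CPM in the lower cells. Hoxa3 (41.5 CPM in the upper cells and 43.1 CPM in the lower cells) and Cxcl12 (572 CPM in the upper cells and 561 CPM in the lower cells) had nearly the same level in both.

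No cell of the knockout library met the same rule. Of 3131 knockout gate cells 0 passed, which allows a share of up to 0.0958% taken as 3 cells of the total (the exact 95% interval reaches 0.118%), and of 4800 non-erythroid cells 0 passed, which allows up to 0.0625% in the same way (0.0768% by the exact interval), whereas the wildtype library had 7.01% of gate cells and 4.24% of non-erythroid cells. The elastin part of the rule set this: the highest knockout gate cell had 4.33 UMIs of Eln and Fbln5 per 10000, and 0 knockout cells and 278 wildtype cells (8.78%) reached 10. The other part was met by 80 knockout gate cells (2.56%) and 358 wildtype gate cells (11.3%). Knockout gate cells had more UMIs per cell, with a median of 16168 against 8345 in wildtype gate cells, and with every cell thinned to 3000 UMIs the rule found 0 knockout cells and 190 wildtype cells.

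Over all gate cells, Eln was at 3.82 CPM in the knockout library and 416 CPM in the wildtype library, and Fbln5 at 4.02 CPM in knockout gate cells and 146 CPM in wildtype gate cells. Some genes that the rule did not use were lower in the knockout gate as well. The wildtype gate cells here include the elastin-rich cells, and the knockout gate has none. For genes high in elastin-rich cells, part of the difference therefore comes from this makeup and is not separate evidence. Sfrp2 was at 2.39 CPM in knockout gate cells and 168 CPM in wildtype gate cells, Osr1 at 1.84 CPM in knockout gate cells and 46.1 CPM in wildtype gate cells, Lmod1 at 0.731 CPM in knockout gate cells and 11.3 CPM in wildtype gate cells, and Hoxa3 at 0.365 CPM in knockout gate cells and 12.2 CPM in wildtype gate cells. Acta2 was at 107 CPM in knockout gate cells and 280 CPM in wildtype gate cells. Prdm6, a gene of the rule, was at 29.9 CPM in knockout gate cells and 75.8 CPM in wildtype gate cells, and Tagln at 234 CPM in knockout gate cells and 247 CPM in wildtype gate cells.

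With the 222 cells left out, some genes stayed lower in knockout cells and others did not. Eln was at 3.82 CPM in knockout gate cells and 112 CPM in the other wildtype gate cells. Sfrp2, Osr1, Lmod1 and Hoxa3 were at 96.5, 34.5, 3.16 and 9.84 CPM in the other wildtype gate cells, each above its knockout level given above. Prdm6, by contrast, was at 29.9 CPM in knockout gate cells and 24.2 CPM in the other wildtype gate cells, and Tagln at 234 CPM in knockout gate cells and 173 CPM in the other wildtype gate cells. In that comparison 8 of the 20 contractile genes were at least 2-fold lower in knockout cells and 0 higher, where 16.1% of 17903 genes were at least 2-fold lower and 5.57% higher. Mfap4 was at 20.1 CPM in knockout gate cells and 212 CPM in the other wildtype gate cells, Lox at 5.61 CPM in knockout gate cells and 49.2 CPM in the other wildtype gate cells, and Ltbp4 at 10.8 CPM in knockout gate cells and 74.0 CPM in the other wildtype gate cells. Of the Hox genes, 13 of 15 were at least 2-fold lower and 1 higher, with Hoxa5 at 0.274 CPM in knockout cells and 20.6 CPM in wildtype cells. Over all non-erythroid cells 15 of 17 Hox genes were lower and 1 higher, against 13.9% and 5.21% of 19068 genes. The marks of stage and of liver tissue given above moved with genotype too, so genotype, stage and dissection cannot be told apart in this difference, and fewer cells of a kind and less RNA per cell cannot be told apart in the summed levels.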

How the data were processed

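The authors deposited unfiltered matrices of raw UMI counts per gene and barcode for 2 libraries. Per the submitters' processing notes they used Cell Ranger 7.1.0 with mm10; how they filtered or grouped cells is not stated here. The chosen cells, the 25 gene lists and the comparisons were selected with earlier results of these data known. UMIs were summed per class and scaled to CPM (numpy 2.4.6, scipy 1.17.1), and the 13 genes that chose the cells were left out of counts of genes. A gene was counted as higher or lower at a 2-fold ratio with at least 20 UMIs over both classes; near that minimum a ratio carries a wide counting error. A gene at 0 in 1 class entered list medians at 3 UMIs. Ratios have exact conditional binomial intervals, levels have Poisson intervals and shares have Clopper-Pearson intervals. Genes outside the lists were named by rank of the ratio of CPM plus 10, the 25 highest and 15 lowest against other non-erythroid cells and 10 each way against other gate cells, among those with at least 50 UMIs and 50 CPM; genes named from the split of the 222 cells were chosen after their values were seen. Doublets were scored with the Scrublet method in scanpy 1.11.5 and kept in: the top 5.95% of wildtype scores (443 barcodes) held 9 of the 222 cells, and the caller's own threshold, which marked 2, was not used. Free RNA, profiled in barcodes under 100 UMIs, made up at most 2.63% of the UMIs of the 222 cells, judged by hemoglobin. Shares of cells with a UMI were repeated with each cell thinned to 3000 UMIs. Alternatives changed the cell filters, the elastin minimum, the number of marker genes, the UMI minimum per gene, the scaling, free RNA, doublets and the cells compared with. The ratio code was tested on simulated data. A few genes counted in the lists are not reported here by name. Positions are from GENCODE vM21, which matched 32158 of 32285 genes.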

Additional observations from a re-analysis of the deposited data

How the results depend on the processing

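Each alternative changed 1 choice. The class held 173 cells with an elastin minimum of 20 per 10000, 186 with 3 of the 4 genes, 204 at 5000 UMIs and 252 at a minimum of 5. The knockout count was repeated at 5000 UMIs, with thinning, without doublets and at a minimum of 5, and stayed 0. Taking cells away could not add any. The minimum of 5, added after seeing the data, had to give 0, since the highest knockout gate cell had 4.33 per 10000. These repeats therefore say little about how firm the 0 is. With at least 100 UMIs per gene, 819 genes were at least 2-fold higher and 1914 lower than in other non-erythroid cells, against 1519 and 3227. Ranked with 50 CPM added, 15 of the 25 highest genes were shared. The median log2 ratio of epicardial markers was -2.91 at a minimum of 20, -3.30 with 3 of 4 genes and -2.89 against other gate cells, against -2.11, and that of G2/M genes was -0.16 with 3 of 4 genes, against -0.28. Against other gate cells the cardiomyocyte median was -0.072 and the endothelial one -0.18, since that comparison leaves those classes out. A named gene counted as reversed when its sign turned and the interval of its main ratio left out 0. By that count 124 of 134 were never reversed. Genes whose interval held 0 could change sign without being counted. Against other gate cells the sign turned for Flt1 (1.37), Fhl2 (0.37), Actn2 (1.62), Myh6 (1.63), Myh7 (0.055), Ryr2 (1.47), Nkx2-5 (0.035), Col1a1 (-0.020) and Snai2 (-0.37), and at a minimum of 20 for Kcnb2 (-0.87); the cause was not tested. Scaling knockout to wildtype by the median gene was not run within the class, which has no knockout cell. No paired analysis was possible because each genotype has 1 library. Depth limits genes under about 20 UMIs in the 222 cells and shares of rare transcripts.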
